A study of Rattus norvegicus with 27 samples.

Results

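ATP-binding cassette (ABC) proteins form a large family whose members use ATP to move lipids, drugs, metabolites, peptides or metals across membranes. Schwann cells are the myelin-forming glia of peripheral nerve, and myelin is a lipid-rich membrane, so the family's sterol and phospholipid exporters handle its building blocks. A smaller set has no membrane domain and works on ribosomes. Here the family was taken as every gene symbol made of Abc, a subfamily letter from a to g, a number and at most 1 further letter. The rule found 42 of the 17315 genes in the cell mRNA table. They were sorted by an assigned role into 14 lipid exporters, 12 drug and conjugate exporters, 3 peroxisomal carriers and 13 others. These roles were not tested here and may not hold for every member.

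Primary Schwann cells of the rat, bought from a supplier and used at passages 3 to 5, were sequenced at 3 stages with 3 libraries each. The undifferentiated group had no dibutyryl cyclic AMP (dbcAMP), a membrane-permeable form of cyclic AMP that is used to push cultured Schwann cells towards a myelinating state. The differentiated group had 1 mM dbcAMP for 72 h in basal medium low in serum. The dedifferentiated group had that treatment followed by 72 h after its withdrawal, in a full medium with more serum, forskolin and neuregulin. Stage and medium therefore changed together, and their shares in any difference cannot be told apart. Titles number the libraries as biological replicates without saying that they came from separate animals or cultures, so the p-values measure the spread between these libraries. Replicate 3 of every stage came from another sequencing project than replicates 1 and 2.

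Levels are given in CPM, a gene's estimated read count as a share of the library's total, scaled so that all genes sum to 1e6. Those totals ran from 10058735 to 16212278, and 3 counts, taken as the floor of detection, stood for 0.185 to 0.298 CPM. CPM depends on transcript length, so the level of a gene is compared with itself across stages. Sums, shares and rankings over several members count reads and not transcripts. The 8 Schwann cell markers measured were all present, among them Sox10 and S100b. Their summed level was 8985 to 10100 CPM before dbcAMP, 8692 to 11250 CPM with it and 19190 to 21980 CPM after withdrawal. Markers of other cell types also moved: the 7 fibroblast markers summed to 24400 to 29130, 12010 to 15680 and 16040 to 19580 CPM in that order, nearly all of it collagen mRNA with Lum at 0, and the 6 mural markers to 124 to 154.5, 542 to 809.5 and 323 to 346 CPM, nearly all of it Pdgfrb with Rgs5 and Kcnj8 at 0. The 6 endothelial markers summed to 1.21 to 3.08, 5.67 to 8.26 and 3.98 to 7.88 CPM, with Cdh5 and Cldn5 at 0. The 7 macrophage markers summed to 0.322 to 1.64, 3.64 to 5.09 and 1.88 to 3.645 CPM, with Aif1, C1qa and C1qb at 0. Both sums were low but higher in every differentiated than in any undifferentiated library, mostly through Tek and Cd68. The part of other cell types in the results was not tested. In such bulk samples fewer cells of a type and less RNA per cell cannot be told apart.

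Of the 42 members, 28 had enough reads to be tested, and 14 did not. The untested members were Abca4, Abca13, Abca15, Abca17, Abcb1a, Abcb11, Abcc2, Abcc6, Abcc9, Abcc12, Abcg1, Abcg2, Abcg5 and Abcg8. Abcb11 and Abcg5 had no count in any library. The highest value among the untested was 6 counts, or 0.509 CPM, for the sterol exporter Abcg1 in dedifferentiated replicate 1. Abcg2, a drug exporter of barrier tissues, had only 2 counts, both in dedifferentiated replicate 3. All members together made up 0.225% to 0.352% of a library.

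The family changed in both directions when cells were differentiated. A gene was called changed when its Benjamini-Hochberg adjusted p in edgeR's quasi-likelihood test, adjusted over all 10372 tested genes, was under 0.05. Between differentiated and undifferentiated cells 19 of the 28 tested members (67.9%) were called, 11 higher and 8 lower, where 59.6% of all tested genes were called. The libraries of both stages did not overlap for 21 members, against 66.3% of all genes. Changes of more than 2-fold were seen for 8 members, against 24.8% of all genes. After dbcAMP withdrawal 14 members (50.0%) differed from the differentiated state, 7 higher and 7 lower, against 46.4% of all genes. Libraries of those stages did not overlap for 15 members, against 58.5% of all genes, and 6 of the called members changed by more than 2-fold, against 15.5%. Dedifferentiated and undifferentiated cells differed in 13 members (46.4%), 7 higher and 6 lower, against 29.4% of all genes. The libraries did not overlap for 16 members, against 43.9%, and 1 called member changed by more than 2-fold, against 9.56%. These comparisons share libraries, so the counts are not independent of each other. Abcc8 is the member with a change above 2-fold in the last comparison, and it passed the filter on low counts only through its dedifferentiated libraries, so it had to differ. Without it 13 and 12 of 27 members were called in the comparisons with dedifferentiated cells, and 5 and 0 of them changed by more than 2-fold. In the first project alone, with 2 libraries a stage, the higher and lower calls numbered 7 and 6, then 5 and 6, then 4 and 2. Calls over all genes were fewer there too, at 4358, 2606 and 1283 of 10371 tested, against 6179, 4809 and 3045 of 10372 with all libraries.

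**Figure D1:**
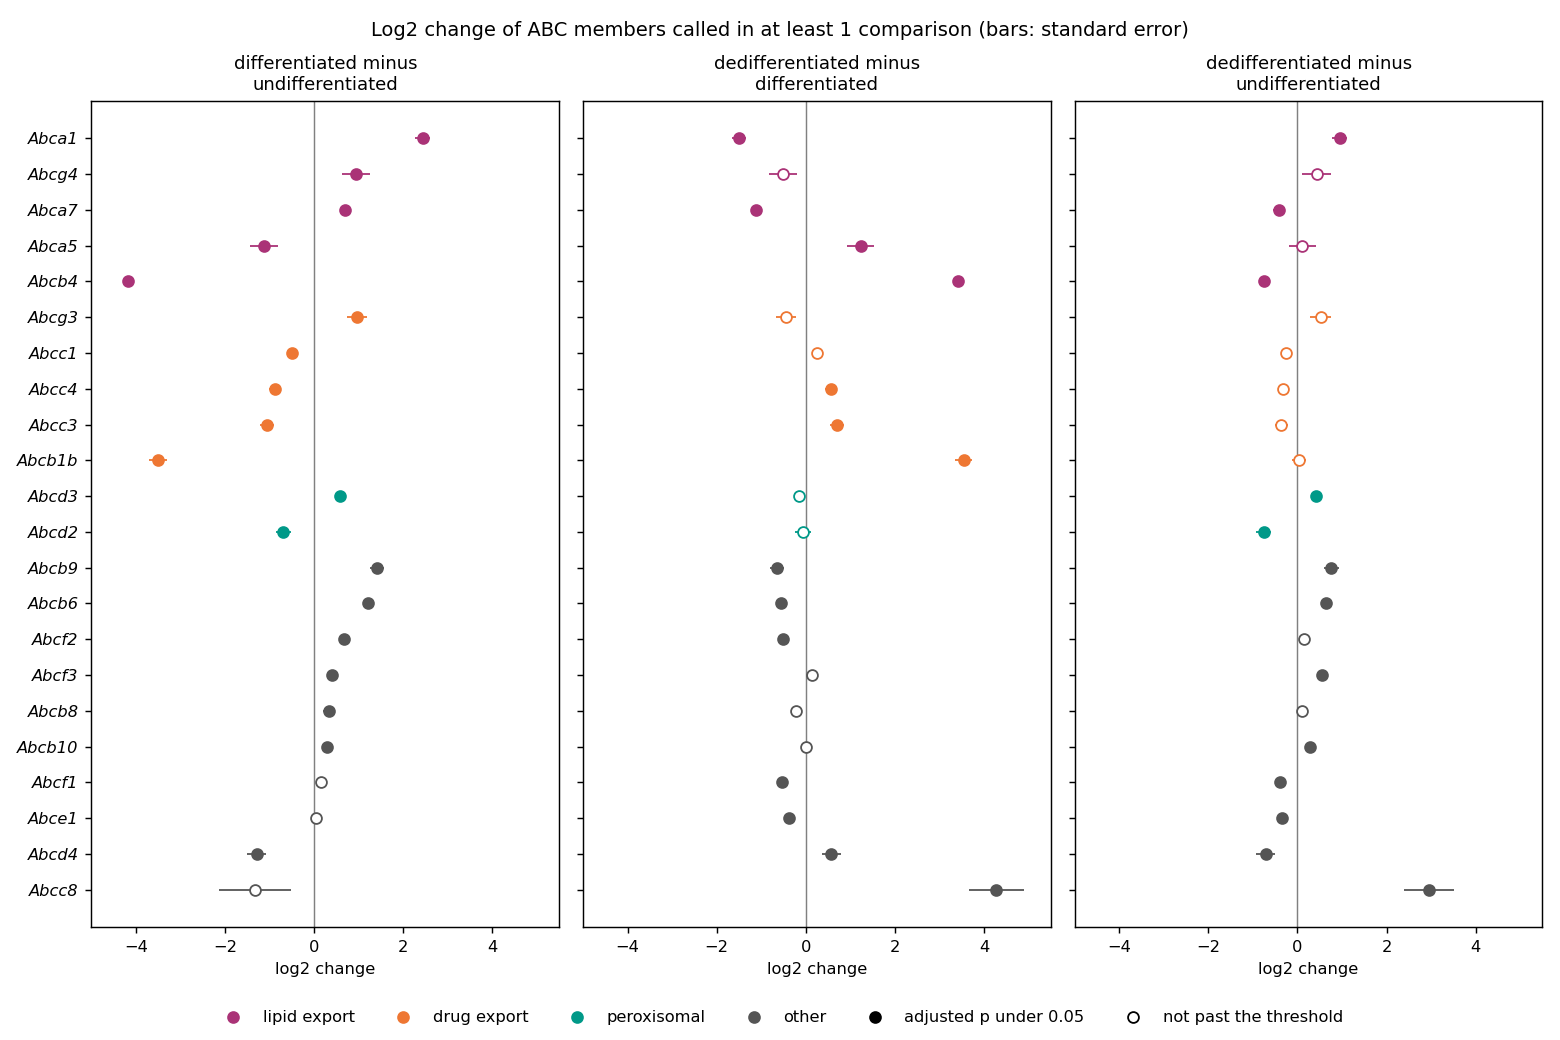
Log2 change (horizontal axes) of the ABC members called in at least 1 comparison (vertical axis) in the 3 stage comparisons (panels), coloured by role; points are fitted changes, bars are 1 SE, and filled points had an adjusted p under 0.05. Abcb4 and Abcb1b stand farthest to the left in differentiated cells and, with Abcc8, farthest to the right after withdrawal, while Abca1 lies at 2.44 in differentiated cells. Abcc8 passed the filter on low counts only through its dedifferentiated libraries, so its filled points are not a test.

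Among the lipid exporters, 5 of 7 tested members (71.4%) changed in differentiated cells, against 59.6% of all tested genes. Abca1, Abca7 and Abcg4 rose, and Abcb4 and Abca5 fell. The median log2 change of the 7 was 0.69, against 0.05 for all genes. After withdrawal Abcb4 and Abca5 rose and Abca1 and Abca7 fell, with a median of −0.08 against −0.01 for all genes. Against undifferentiated cells, dedifferentiated cells had more Abca1 and less Abca7 and Abcb4.

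Abca1 passes cholesterol and phospholipid to apolipoproteins at the cell surface and is a known target of the liver X receptors. Its level was 136, 157 and 157 CPM in undifferentiated, 844, 1001 and 701 CPM in differentiated, and 362, 244 and 291 CPM in dedifferentiated cells. The 3 stages did not overlap, and dedifferentiated cells lay between the others. The fitted rise on differentiation was 5.42-fold (log2 2.44 ± 0.16 SE, adjusted p 5.17e-07 in edgeR with Benjamini-Hochberg adjustment). The later fall was −1.49 ± 0.16 on the log2 scale (adjusted p 3.43e-05), which left Abca1 above undifferentiated cells by 0.94 ± 0.16 (adjusted p 0.0013). On the rat chromosome its neighbours are Slc44a1, a choline transporter, and Nipsnap3b. Slc44a1 rose by 1.88 on differentiation (adjusted p 2.06e-07) and Nipsnap3b changed by −0.88 (adjusted p 0.000187). The 250 bases before the start of Abca1 are shown because this member had the largest called rise in differentiated cells among those tested. They lie on the minus strand at chr5:72596474-72596723 of RefSeq assembly GRCr8, read 5′ to 3′, with the GC box GGGCGG and the TATA box TATAAA in capitals, 165 to 160 and 32 to 27 bases before the start.
Abca1: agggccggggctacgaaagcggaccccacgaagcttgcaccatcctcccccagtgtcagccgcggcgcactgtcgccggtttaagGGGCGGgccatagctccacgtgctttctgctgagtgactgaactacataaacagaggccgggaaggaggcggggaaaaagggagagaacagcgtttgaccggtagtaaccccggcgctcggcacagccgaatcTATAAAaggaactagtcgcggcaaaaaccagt

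Abcb4 moves phosphatidylcholine to the outer leaflet of the membrane and is best known from the bile canaliculus of the liver. It was at 384.5, 440.1 and 476 CPM in undifferentiated cells, 24.6, 22.5 and 27.3 CPM in differentiated cells, and 253, 268 and 272 CPM after withdrawal. No library of one stage reached into the range of another, and the differentiated cells were far below both other stages. The level was 18.2-fold lower in differentiated than in undifferentiated cells (log2 −4.18 ± 0.10, adjusted p 1.82e-09). It was 10.7-fold higher again in dedifferentiated cells (log2 3.42 ± 0.10, adjusted p 8.93e-09) but stayed below the undifferentiated level by −0.76 ± 0.09 (adjusted p 0.000129).

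Abcb1b, a P-glycoprotein that exports many drugs, is the next gene to Abcb4 in the rat and showed a similar course. Its values were 27.4, 29.4 and 33.6 CPM in undifferentiated cells, 2.21, 2.39 and 3.58 CPM in differentiated cells, and 25.4, 34.3 and 36.0 CPM after withdrawal. Differentiated libraries lay below all others, whereas undifferentiated and dedifferentiated libraries overlapped. The fall was 11.4-fold (log2 −3.51 ± 0.20, adjusted p 1.48e-07) and the return 11.6-fold (log2 3.54 ± 0.20, adjusted p 4.23e-07). Dedifferentiated and undifferentiated cells differed by 0.03 ± 0.16 (adjusted p 0.904). Abcb1a, the other rodent P-glycoprotein and the next gene along, was untested, with 4.2, 1 and 4.4 counts in undifferentiated cells, 0 in all 3 differentiated libraries, and 2.1, 1 and 1 after withdrawal. On the far side of Abcb4, Crot, which encodes a peroxisomal carnitine acyltransferase, fell by 1.12 on the log2 scale in differentiated cells (adjusted p 1.07e-05) and rose by 0.78 after withdrawal (adjusted p 0.00029).

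Reads of these closely related genes can be shared out by the counting, and fractional counts occurred in 6 libraries for Abcb1a, 6 for Abcb1b and 3 for Abcb4. Summing the 3 genes gave 464 ± 49.2, 27.5 ± 3.09 and 296 ± 15.5 CPM (SD, n = 3) for the 3 stages. The summed change was −4.13 on differentiation (adjusted p 2.15e-09) and 3.44 after withdrawal (adjusted p 1.09e-08). The promoters of Abcb4 and Abcb1b are set beside each other because these neighbours moved together. Both lie on the minus strand, at chr4:26164146-26164395 and chr4:26280030-26280279 of GRCr8, and each holds a single GC box, in capitals, 209 to 204 bases before the start in Abcb4 and 164 to 159 in Abcb1b.
Abcb4: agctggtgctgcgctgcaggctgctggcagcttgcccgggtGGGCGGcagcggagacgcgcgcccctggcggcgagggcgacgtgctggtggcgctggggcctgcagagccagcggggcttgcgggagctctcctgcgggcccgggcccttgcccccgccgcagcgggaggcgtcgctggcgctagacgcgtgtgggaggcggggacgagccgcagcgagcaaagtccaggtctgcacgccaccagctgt
Abcb1b: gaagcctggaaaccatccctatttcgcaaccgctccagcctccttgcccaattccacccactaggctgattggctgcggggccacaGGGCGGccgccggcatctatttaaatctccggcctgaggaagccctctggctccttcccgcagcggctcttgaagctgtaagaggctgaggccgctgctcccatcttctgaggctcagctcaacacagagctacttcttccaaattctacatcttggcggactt

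**Figure D2:**
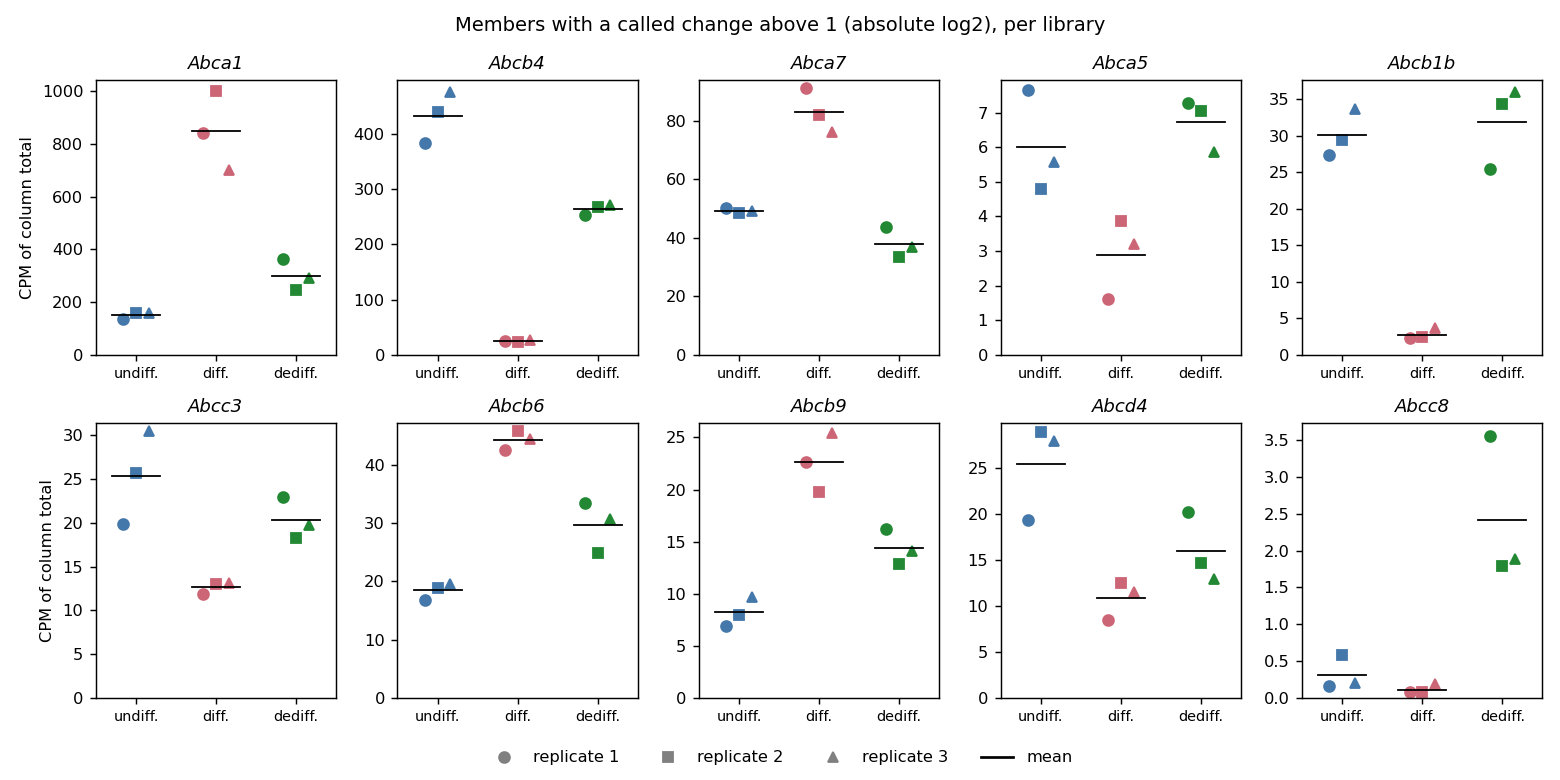
Level in CPM (vertical axes, a separate scale in each panel) of 10 ABC members in every library by stage (horizontal axes); symbols mark the replicate number and bars the stage mean. Abcb4 and Abcb1b are low in the 3 differentiated libraries alone, and Abca1 is high there.

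Abca7, a relative of Abca1 linked to phospholipid export and to phagocytosis, was at 50.2, 48.4 and 49.2 CPM in undifferentiated, 91.1, 81.7 and 76.2 CPM in differentiated, and 43.7, 33.2 and 36.9 CPM in dedifferentiated cells. The stages did not overlap, and the dedifferentiated cells were lowest. Its changes were 0.69 ± 0.11 on differentiation (adjusted p 0.000366) and −1.12 ± 0.11 after withdrawal (adjusted p 2.75e-05). The difference of −0.42 between dedifferentiated and undifferentiated cells (adjusted p 0.0192) was lost without dedifferentiated replicate 2 (adjusted p 0.0544) or replicate 3 (adjusted p 0.0702). Abca5, a lysosomal member, took the opposite course at a low level. It stood at 7.66, 4.81 and 5.56 CPM, then 1.62, 3.86 and 3.21 CPM, then 7.29, 7.06 and 5.87 CPM. Differentiated libraries were below all others, with changes of −1.12 ± 0.31 (adjusted p 0.00949) and 1.23 ± 0.31 (adjusted p 0.00812). Abcg4, a sterol exporter of brain cells, rose by 0.94 ± 0.32 in differentiated cells (adjusted p 0.0247), from 3.27 ± 0.736 to 6.56 ± 1.65 CPM (SD, n = 3). That call was lost without undifferentiated replicate 2 or 3 (adjusted p 0.0592 and 0.0956) or differentiated replicate 2 (adjusted p 0.0983).

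Abca2, an endolysosomal member known from myelinating glia, did not pass the test in any comparison. Its means were 472 ± 46.5, 511 ± 25.4 and 480 ± 95.1 CPM (SD, n = 3), and its adjusted p-values were 0.773, 0.676 and 0.905. Abca8a, linked to cholesterol efflux and, in oligodendrocytes, to sphingomyelin, had the highest CPM of the lipid exporters as a mean over all 9 libraries, though not in undifferentiated or differentiated cells taken alone, and was spread widely. It stood at 46.7, 457 and 502 CPM in undifferentiated, 428, 656 and 727 CPM in differentiated, and 492, 988 and 1056 CPM in dedifferentiated cells. Replicate 1 was the lowest library at each stage and the stages overlapped. No change of Abca8a passed the test, at 0.80 ± 0.62 (adjusted p 0.285), 0.50 ± 0.61 (adjusted p 0.527) and 1.30 ± 0.62 (adjusted p 0.144). Without undifferentiated replicate 1 the first and last of these were 0.29 (adjusted p 0.421) and 0.79 (adjusted p 0.0758). With the replicate number as a block in edgeR they were 1.18 (adjusted p 0.041) and 1.60 (adjusted p 0.0214). No label says that equal numbers share a culture, though replicate 3 of every stage came from another sequencing project. Replicate 1 was lowest at all 3 stages for 1229 of the tested genes (11.9%), Abca8a and Abcb1b among them. Apoe, the apolipoprotein that glia load with exported sterol, was chosen after its values were seen, and it ran at 3.22, 17.9 and 16.4 CPM, then 18.0, 40.7 and 43.9 CPM, then 8.99, 35.6 and 33.5 CPM. Replicate 1 was the lowest at each stage there too, and no Apoe change passed the test (adjusted p 0.0613, 0.602 and 0.23).

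**Figure D3:**
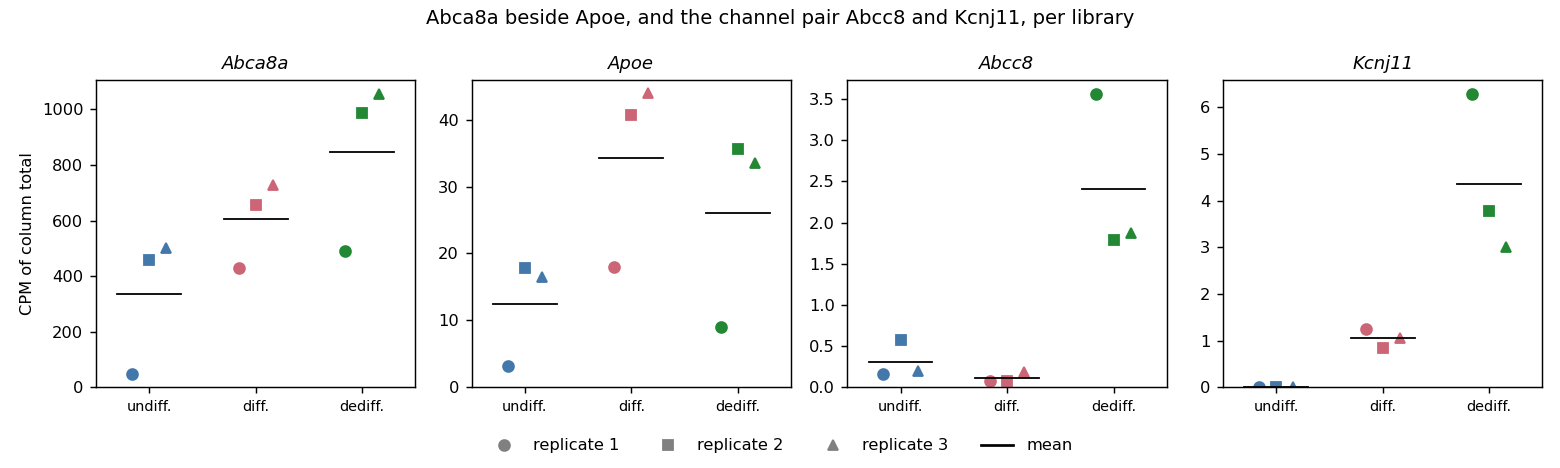
Level in CPM (vertical axes, a separate scale in each panel) of Abca8a, Apoe, Abcc8 and Kcnj11 in every library by stage; symbols mark the replicate number and bars the stage mean. Replicate 1 is the lowest library at each stage for Abca8a and Apoe, while Abcc8 and Kcnj11 are highest in the dedifferentiated libraries.

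Summed over its members, lipid export stood at 1450 ± 258 CPM before dbcAMP, 2080 ± 166 CPM with it and 1937 ± 178 CPM after its withdrawal (SD, n = 3). Undifferentiated libraries, at 1155, 1559 and 1635 CPM, lay below all others, which reached from 1752 to 2258 CPM. The shares of its members differed between stages. Abca1 went from 10.4% to 40.8% and then 15.4% of its reads, Abcb4 from 29.9% to 1.19% and then 13.7%, and Abca8a from 23.1% to 29.0% and then 43.6%. Without Abca8a the sums were 1115, 1476 and 1092 CPM.

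**Figure D4:**
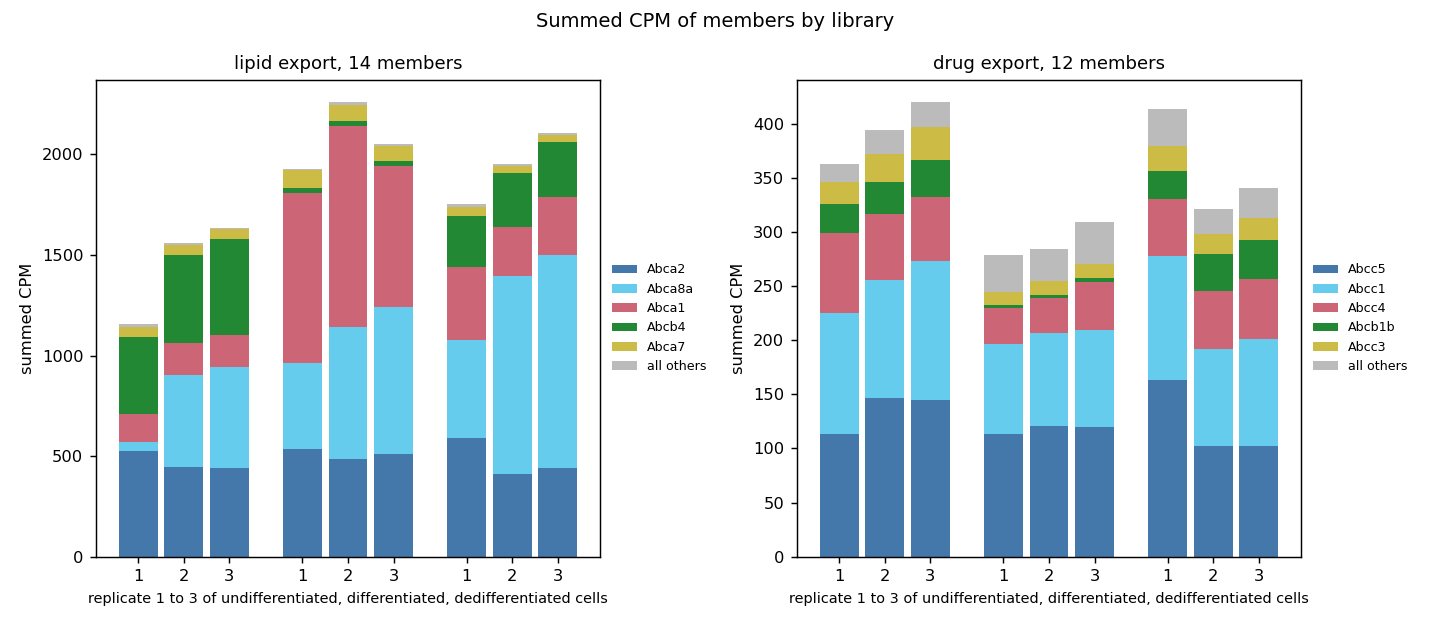
Summed CPM (vertical axis) of the 14 lipid exporters and the 12 drug exporters in each library (horizontal axis, 3 per stage), stacked by member. Abca1 takes its largest share in the differentiated libraries and Abcb4 its smallest, whereas the drug export sums are lowest in the differentiated libraries.

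Of the 7 drug and conjugate exporters tested, 4 fell and 1 rose on differentiation, where 27.9% of all tested genes fell and 31.7% rose. Abcb1b, Abcc1, Abcc3 and Abcc4 fell and Abcg3 rose, with a median log2 change of −0.50 against 0.05 for all genes. After withdrawal Abcb1b, Abcc3 and Abcc4 rose, where 23.2% of all genes rose, and no member fell, with a median of 0.24. In edgeR none of the 7 members was called between dedifferentiated and undifferentiated cells, where 29.4% of all tested genes were. At an unadjusted p under 0.05 in edgeR, 1 was higher and 3 lower, and DESeq2 called Abcc1 lower. There Abcc1 was also called without dedifferentiated replicate 1 (adjusted p 0.00896) and Abcc3 without undifferentiated replicate 1 (adjusted p 0.0229). The group summed to 392 ± 28.6, 291 ± 15.8 and 358.5 ± 48.7 CPM (SD, n = 3). Differentiated libraries, at 279 to 309 CPM, lay below the undifferentiated ones, at 363 to 419.7 CPM, and the dedifferentiated ones, at 321 to 413.5 CPM.

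Abcc3, an exporter of glucuronides and bile acids, was at 19.8, 25.7 and 30.5 CPM in undifferentiated, 11.9, 13.0 and 13.1 CPM in differentiated, and 23.0, 18.3 and 19.8 CPM in dedifferentiated cells. Differentiated libraries were below all others. Its changes were −1.06 ± 0.15 (adjusted p 0.000155) and 0.70 ± 0.15 (adjusted p 0.004). Abcc4, which exports cyclic nucleotides, cyclic AMP among them, was at 73.9, 60.8 and 59.5 CPM, then 33.4, 32.8 and 44.4 CPM, then 53.4, 53.1 and 55.4 CPM. It fell by 0.88 ± 0.13 on the log2 scale with dbcAMP (adjusted p 0.000208) and rose by 0.56 ± 0.13 after withdrawal (adjusted p 0.00579), and again no differentiated library reached the other stages. Abcc1, an exporter of glutathione conjugates, fell by 0.50 ± 0.10 (adjusted p 0.00119), from 116.5 ± 10.4 to 86.0 ± 3.35 CPM (SD, n = 3). Its value after withdrawal was 101 ± 12.3 CPM, which differed from the differentiated cells by 0.24 (adjusted p 0.0619, or 0.0272 without dedifferentiated replicate 2).

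Abcc5, also an exporter of cyclic nucleotides, took the most reads of this group. It was at 113.5, 146 and 144.5 CPM in undifferentiated, 114, 121 and 119.5 CPM in differentiated, and 163, 102.5 and 102.4 CPM in dedifferentiated cells. The stages overlapped and no change passed the test (adjusted p 0.224, 0.752 and 0.467). Without dedifferentiated replicate 1, the highest library of the 9, the difference of dedifferentiated from undifferentiated cells went from −0.18 to −0.47 (adjusted p 0.00826). Abcc10 was at 12.2, 17.7 and 16.3 CPM on average and did not pass the test either (adjusted p 0.0861, 0.722 and 0.243).

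Abcg3, a rodent relative of Abcg2, was the drug-group member that rose in differentiated cells. Its mean went from 8.21 ± 2.71 to 16.5 ± 3.44 CPM (SD, n = 3; log2 0.96 ± 0.23, adjusted p 0.00438). It had fractional counts in all 9 libraries, and 4 further genes named Abcg3l can share its reads. Summed with them, the 5 genes were at 125 ± 28.6, 201 ± 20.6 and 146 ± 13.0 CPM (SD, n = 3). That sum rose by 0.63 (adjusted p 0.00373) and fell by 0.45 after withdrawal (adjusted p 0.0283), so which of the copies changed is uncertain.

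Peroxisomal carriers bring fatty acyl groups into the peroxisome, and those described here went separate ways. Abcd3, a carrier of branched and dicarboxylic acids, rose in differentiated cells and stayed above the undifferentiated level after withdrawal. Abcd2, a carrier of very long unsaturated fatty acids, fell, and after withdrawal it was again below the undifferentiated level. Between dedifferentiated and differentiated cells neither Abcd3 (−0.16, adjusted p 0.163) nor Abcd2 (−0.06, adjusted p 0.806) passed edgeR's test. Without dedifferentiated replicate 1 Abcd3 was called lower there (−0.24, adjusted p 0.028).

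Abcd3 was at 89.1, 89.7 and 93.2 CPM in undifferentiated, 133, 152 and 140.3 CPM in differentiated, and 140.2, 115 and 122 CPM in dedifferentiated cells. Undifferentiated libraries lay below all others, and the other stages overlapped. The rise was 0.58 ± 0.09 (adjusted p 0.000232), and dedifferentiated cells were 0.42 ± 0.09 above undifferentiated ones (adjusted p 0.00525). Abcd2 went from 12.1 ± 1.20 to 7.80 ± 0.678 and 7.42 ± 1.28 CPM (SD, n = 3). Its differences from undifferentiated cells were −0.70 (adjusted p 0.00462) and −0.75 (adjusted p 0.00767).

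Of the 13 remaining members 11 were tested, and 6 rose and 1 fell on differentiation, where 31.7% of all tested genes rose and 27.9% fell. Abcb6, Abcb8, Abcb9, Abcb10, Abcf2 and Abcf3 rose and Abcd4 fell, with a median log2 change of 0.29. After withdrawal Abcc8 and Abcd4 rose, and Abcb6, Abcb9, Abce1, Abcf1 and Abcf2 fell, with a median of −0.22. Of all genes 23.2% rose and 23.2% fell. Abcc8 passed the filter on low counts only through its dedifferentiated libraries, so it had to differ, and without it only Abcd4 rose. The sum over all 13 was 608 ± 9.62, 755 ± 32.7 and 589 ± 6.56 CPM (SD, n = 3), and the differentiated libraries, at 731 to 792 CPM, were above all others.

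Abcb6, a porphyrin transporter of mitochondria and other membranes, was at 16.8, 18.8 and 19.6 CPM in undifferentiated, 42.6, 45.8 and 44.4 CPM in differentiated, and 33.4, 24.9 and 30.7 CPM in dedifferentiated cells. Its stages did not overlap, with changes of 1.20 ± 0.12 (adjusted p 7.99e-06), −0.56 (adjusted p 0.00238) and, against undifferentiated cells, 0.64 (adjusted p 0.00235). Abcb9, a lysosomal peptide transporter, showed the same order. It was at 6.93, 7.98 and 9.68 CPM, then 22.7, 19.8 and 25.5 CPM, then 16.2, 12.8 and 14.1 CPM. The stages again did not overlap, with changes of 1.40 ± 0.16 (adjusted p 2.46e-05), −0.64 (adjusted p 0.00617) and 0.76 (adjusted p 0.0052).

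Abcd4, which serves cobalamin release from the lysosome, fell in differentiated cells. Its values were 19.3, 28.8 and 27.9 CPM, then 8.47, 12.5 and 11.5 CPM, then 20.2, 14.6 and 12.9 CPM. Differentiated libraries were below all others, while dedifferentiated replicate 1 reached above the lowest undifferentiated library. The fall was −1.29 ± 0.21 (adjusted p 0.00038). The later rise of 0.57 (adjusted p 0.0495) was lost without differentiated replicate 1, 2 or 3 (adjusted p 0.152, 0.0511 and 0.0873) or dedifferentiated replicate 1 or 2 (adjusted p 0.179 and 0.069). It was also lost with the sequencing project as a covariate (adjusted p 0.0656) and with scaling by library size only (adjusted p 0.0611). The remaining difference of −0.72 from undifferentiated cells (adjusted p 0.0262) was lost without undifferentiated replicate 2 or 3 (adjusted p 0.0741 and 0.0769) or dedifferentiated replicate 2 or 3 (adjusted p 0.0734 and 0.101).

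Of the mitochondrial members, Abcb10, tied to heme synthesis, rose by 0.29 (adjusted p 0.0173) from 32.5 ± 0.602 to 41.4 ± 2.17 CPM (SD, n = 3), a call lost without undifferentiated replicate 2 or 3 (adjusted p 0.0748 and 0.055) or differentiated replicate 1 (adjusted p 0.0619). It stood at 40.9 ± 2.88 CPM after withdrawal, 0.28 above undifferentiated cells (adjusted p 0.0378). Abcb8, part of a mitochondrial potassium channel, rose by 0.33 (adjusted p 0.0399). Leaving out any 1 of the 6 undifferentiated and dedifferentiated libraries ended the last Abcb10 call (adjusted p 0.0506 to 0.129), and leaving out any undifferentiated library, or differentiated replicate 2 or 3, ended that of Abcb8 (adjusted p 0.0609 to 0.146). Each of these calls was lost in 11 of 14 alternative fits, DESeq2 among them (adjusted p 0.0789 for Abcb10 and 0.0663 for Abcb8).

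The ABC proteins of translation have no membrane domain. Abcf1, which acts with an initiation factor, was at 198, 185 and 174 CPM in undifferentiated, 204, 233.5 and 209.8 CPM in differentiated, and 144, 153 and 144 CPM in dedifferentiated cells. The 3 stages did not overlap and dedifferentiated cells were lowest. Its change on differentiation did not pass the test (0.15, adjusted p 0.145), though it did without undifferentiated replicate 1 (0.22, adjusted p 0.048). Its fall after withdrawal was −0.54 (adjusted p 0.000542), which left it below undifferentiated cells by −0.39 (adjusted p 0.00708). Abce1, the ribosome recycling factor, likewise went from 183 ± 5.32 and 196 ± 8.22 to 149 ± 12.4 CPM (SD, n = 3), with changes of −0.38 from differentiated cells (adjusted p 0.00247) and −0.35 from undifferentiated cells (adjusted p 0.00727).

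Abcf2 and Abcf3, relatives of Abcf1, rose on differentiation. Abcf2 went from 69.3 ± 4.11 to 115 ± 6.04 and back to 79.5 ± 2.89 CPM (SD, n = 3), with changes of 0.67 (adjusted p 6.15e-05) and −0.52 (adjusted p 0.000623). Abcf3 rose by 0.40 (adjusted p 0.00251), differed by 0.14 after withdrawal (adjusted p 0.204), and then stood 0.54 above undifferentiated cells (adjusted p 0.00105). TGACGTCA, the palindromic cyclic AMP response element, lies before Abcf2, before Abce1 and before the untested Abcg2. Abce1 did not pass edgeR's test on differentiation (0.035, adjusted p 0.715). The promoter of Abcf2 is shown because, of the tested members with this element, it was the one called on differentiation. It lies on the plus strand at chr4:11487072-11487321 of GRCr8, and its capitals mark that element, 131 to 124 bases before the start, and GGGCGG on the opposite strand at 75 to 70 and 9 to 4 bases before it.
Abcf2: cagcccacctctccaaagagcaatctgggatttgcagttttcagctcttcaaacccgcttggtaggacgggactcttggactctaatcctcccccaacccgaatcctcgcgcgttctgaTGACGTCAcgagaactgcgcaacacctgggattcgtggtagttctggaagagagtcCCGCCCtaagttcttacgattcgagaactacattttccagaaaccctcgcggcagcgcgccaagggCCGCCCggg

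RefSeq promoters, taken as the 250 bases before a gene's start, were matched by symbol for 32 of the 42 members and 21 of the 28 tested. Both strands were searched. TGACGTCA was found in 2 of the 21 (Abce1 and Abcf2), against 1.70% of 27457 rat promoters and 3.18% of those of tested genes. Its shorter core TGACG, which lies within it, was in 5 (Abcc1, Abcc10, Abce1, Abcf2 and Abcf3), against 19.0% and 29.8%. GGGCGG was in 16, against 32.4% and 61.4%, TATAAA in 3 (Abca1, Abcd4 and Abcg3), against 13.1% and 5.74%, and the Egr site GCGTGGGCG in 1 (Abcd2), against 0.51% and 1.07%. A match describes the letters of this window alone.

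Abcc8 encodes the sulfonylurea receptor, the regulatory subunit of a potassium channel closed by ATP, and most of its counts came from dedifferentiated libraries. It had 2, 6 and 3 counts in undifferentiated, 1, 1 and 3 in differentiated, and 42, 18 and 25 in dedifferentiated cells, the last of which stood for 3.56, 1.79 and 1.88 CPM. Pooled over libraries, its CPM was 20.7 times the differentiated level (95% exact interval 8.52 to 65.3, counting error only) and 8.38 times the undifferentiated one (4.45 to 17.4). Since it could be tested only because it was high there, these values are a description and no test of them is given. Kcnj11, the pore subunit of the same channel and the neighbouring gene, was chosen after its values were seen. It had 0 counts in all 3 undifferentiated libraries, 17, 11 and 17 in differentiated, and 74, 38 and 40 in dedifferentiated cells. Set against the mean floor of 3 counts in an undifferentiated library, 0.242 CPM, the differentiated level was at least 4.34-fold higher and the level after withdrawal at least 18.0-fold higher. Its rise from differentiated to dedifferentiated cells was 2.05 ± 0.40 (adjusted p 0.00327). Abcc9, the other sulfonylurea receptor, was untested, and its pore partner Kcnj8 had no count in any library.

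Genes that work with these transporters were read from lists, and those named had the smallest p in each direction on differentiation. Of 23 tested genes of sterol efflux, uptake and liver X receptor response, 5 rose and 12 fell, where 31.7% of all genes rose and 27.9% fell. Mylip, a ligase that degrades the LDL receptor, rose by 1.45 (adjusted p 4.72e-06) and Npc1, the lysosomal cholesterol exporter, by 1.27 (adjusted p 3.11e-05). Lipa, the lysosomal acid lipase that frees cholesterol from its esters, fell by 4.18 (adjusted p 2.97e-09), from 414 ± 65.9 to 23.8 ± 0.741 CPM, and stood at 252 ± 25.9 CPM after withdrawal (SD, n = 3). Scarb1, a lipoprotein receptor, fell by 1.33 (adjusted p 8.05e-07). After withdrawal 7 of the list rose and 4 fell, against 23.2% and 23.2% of all genes. The liver X receptor Nr1h2 did not pass the test, at 119 ± 4.50, 111 ± 5.42 and 123 ± 11.8 CPM (SD, n = 3), and Nr1h3 was untested.

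Among 28 tested genes of peroxisome assembly, oxidation and related lipid synthesis, 12 rose and 3 fell on differentiation, against 31.7% and 27.9% of all genes. Elovl1, which makes very long fatty acids, rose by 1.44 (adjusted p 1.3e-06) and Scp2, a peroxisomal thiolase and lipid carrier, by 0.86 (adjusted p 1.47e-05), while Pex5, the import receptor, and the oxidase Acox3 each changed by −0.49 (adjusted p 0.00169 and 0.00647). Of 18 xenobiotic and glutathione genes 8 rose and 5 fell, against the same shares. Gsta4, a glutathione transferase for lipid aldehydes, rose by 3.64 (adjusted p 1.06e-08) and Gss, glutathione synthetase, by 1.88 (adjusted p 2.18e-07), while the cystine carrier Slc7a11 fell by 4.74 (adjusted p 2.86e-06) and Gpx1 by 1.88 (adjusted p 8.09e-07). After withdrawal 10 of these 18 rose and 4 fell, against 23.2% and 23.2%.

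Heme and iron-sulfur genes numbered 21 tested, of which 9 rose and 1 fell on differentiation, and 1 rose and 9 fell after withdrawal. For all genes those shares were 31.7% and 27.9%, then 23.2% and 23.2%. Hspa9, the mitochondrial chaperone of iron-sulfur assembly, rose by 0.98 (adjusted p 1.63e-06) and Tmem14c, a porphyrin carrier, fell by 0.69 (adjusted p 2.48e-05). Of 18 genes of translation termination, recycling and stress sensing 7 rose and 4 fell on differentiation, set against the same 31.7% and 27.9%. Eif2b1 rose by 0.70 (adjusted p 6.99e-05) and the release factor Etf1 by 0.58 (adjusted p 0.000868), whereas the stress kinase Eif2ak4 fell by 1.01 (adjusted p 2.09e-06) and the ribosome rescue factor Pelo by 0.72 (adjusted p 0.000631). Of the ABC proteins that carry other symbols, Tap1, which feeds peptides to class I molecules, rose by 1.47 (adjusted p 0.000526) and fell by 1.20 after withdrawal (adjusted p 0.00287). Tap2, its partner, did not pass the test (adjusted p 0.979, 0.374 and 0.448), and Cftr had no count.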

How the data were processed

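The 9 cell mRNA libraries, 3 at each of 3 stages, were used; the other 18 of the 27 libraries, from vesicles, were not used here. The authors deposited estimated counts per gene, made with Salmon per the file name and the submitters' processing notes, which also list STAR, HISAT2, Trim Galore and DESeq2 1.26.0; the genome build and annotation are not given in the sources used here. Fractions occurred in 1.15% of values, and every value was rounded to a whole count for testing. Columns were matched to samples by library code and stage. Their replicate suffix differs from the sample titles, which were followed, and both readings number the same sets of libraries together.

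Counts were fitted with edgeR 4.0.16 (R 4.3.3) in a quasi-likelihood model of all 9 libraries without covariates, after filterByExpr (minimum count 10) and TMM scaling on totals over all genes. Benjamini-Hochberg adjustment covered the 10372 genes kept, and the standard error was the log2 change divided by the square root of F. DESeq2 1.42.0 was an alternative. The scripts were tested on simulated data. Members, roles and lists were chosen with earlier results of these data known; values are printed per library for members called with a log2 change above 1 in size and stages that do not overlap, and for the member with most reads in each role; those of Abcc4, Apoe and Kcnj11 were added after their values were seen. Alternatives with summed paralogs, TMM-scaled sums, sums without 1 library and the first sequencing project alone were added after the data were seen. Promoters are RefSeq sequence of GRCr8. Some genes of the family and of the lists are counted but not reported here by name.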

Additional observations from a re-analysis of the deposited data

How the results depend on the processing

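Of 1182 alternative values for single members, 1114 stayed on their side of the threshold, 56 lost a call, 12 gained one, and no called value changed sign. Of the members called, 13 of 19, 11 of 14 and 6 of 13 kept their call in all alternatives run for differentiation, withdrawal, and dedifferentiated against undifferentiated cells. Leaving out 1 library at a time gave 8 to 11 higher and 8 lower calls, then 6 to 7 and 7 to 8, then 6 and 4 to 8. Over all genes those fits called 5558 to 6049, 3916 to 4513 and 2246 to 2876, of 10460 to 10521 tested. A log2 change above 1 in size left 3 higher and 5 lower, then 4 and 2, then 1 and 0. Abcc8, which had to differ, is among the higher members in the comparisons with dedifferentiated cells. The first sequencing project alone, which has fewer samples, gave 7 higher calls on differentiation, and 4 higher and 2 lower in dedifferentiated against undifferentiated cells. Over all 10371 genes tested there, 4358 and 1283 were called in these comparisons. Abca5, Abcd2, Abcg3 and Abcg4 were among the member calls lost. With the replicate number as a block the counts were 11 and 8, then 6 and 7, then 8 and 6. That fit called 6325, 5031 and 3256 of all 10372 tested genes. In it Abca8a gained calls (1.18, adjusted p 0.041, and 1.60, adjusted p 0.0214, in edgeR), while Abcb8 on differentiation (adjusted p 0.051) and Abcd4 after withdrawal (adjusted p 0.0564) lost theirs. No label says that libraries of equal number share a culture, though replicate 3 of every stage came from another sequencing project. Deviations of same-numbered libraries correlated by 0.028 to 0.304 in 9 pairs, 7 of them above 0.1. Of the 9 libraries, 8 correlated best with their own number. Summed CPM is given next for undifferentiated, differentiated and dedifferentiated cells, without the member of most reads. It was 257, 173 and 236 for drug export, and 1115, 1476 and 1092 for lipid export. Peroxisomal members gave 32.0, 30.4 and 32.9, and other members 422, 539 and 442. Dropping a member makes sums smaller, but outside drug export the order of stages changed too. With all members, lipid export was 1450, 2080 and 1937, and other members 608, 755 and 589. Peroxisomal members were at 123, 172 and 158 with Abcd3 included. For other members, DESeq2 size factors gave 633 in undifferentiated and 579.7 in dedifferentiated cells, and TMM gave 624 in undifferentiated cells; the cause was not tested. Depth limits the 14 untested members, none of which had more than 6 counts in a library, and reads shared among close relatives limit Abcb1a, Abcb1b, Abcb4 and Abcg3.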
